A study of Mus musculus with 10 samples.

Results

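Non-muscle myosin II and the kinases that act on it were followed in WT31 melanoma cells and in the WT31_P5IV subline by 10 gene symbols, namely the heavy chains Myh9, Myh10 and Myh14, the essential light chain Myl6, the regulatory light chains Myl9, Myl12a and Myl12b, and the kinases Mylk, Rock1 and Rock2. The symbols were matched by name in GENCODE M21 and correspond to 11 of the 55385 gene identifiers in the deposited values, because Myl12b has 2 identifiers. WT31 is a murine melanoma line from mice that carried a mutant Nras transgene under the tyrosinase promoter and lacked INK4a, so libraries of both groups share this background. WT31_P5IV was obtained from WT31 by 5 cycles of injection into the tail vein and culture of cells from liver metastases, and it is represented here by a single subline. Cells of both groups were grown in the same medium with 10% serum and penicillin/streptomycin, were given no drug treatment according to the labels and were harvested below confluence. RNA-seq covered 5 libraries of each group, which the labels call biological replicates without naming separate cultures, so p-values measure the spread between these libraries.

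Non-muscle myosin II is a hexamer of a pair of heavy chains, a pair of essential light chains and a pair of regulatory light chains. It forms bipolar filaments that pull on actin and gives cells cortical tension, stress fibres and the cleavage furrow. Phosphorylation of the regulatory light chain, by myosin light chain kinase or by the kinases Rock1 and Rock2, switches the motor on, and myosin phosphatase reverses this. In melanoma cells this contractility is known for its part in rounded, amoeboid movement.

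The regulatory light chains are the members whose sequences need to be seen beside the values, since Myl12a and Myl12b are nearly the same and Myl9 is not. Bases 31 to 90 of the coding sequences in GENCODE M21 are given here, from the transcript numbered first for each gene, and the capitals (bases 55 to 60) mark the threonine and serine codons that the kinases act on.
Myl9: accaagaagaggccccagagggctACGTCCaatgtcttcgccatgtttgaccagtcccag
Myl12a: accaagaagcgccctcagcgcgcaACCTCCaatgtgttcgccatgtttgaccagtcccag
Myl12b: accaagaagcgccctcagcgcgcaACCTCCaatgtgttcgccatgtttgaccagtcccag
Within this stretch Myl12a and Myl12b had 0 differences, and Myl9 differed from each of them at 8 bases. Over the 516 coding bases, Myl12a and Myl12b were 96.5% identical, whereas Myl9 was 85.7% identical to Myl12a and 86.4% identical to Myl12b. Of all 31-base words in the transcripts of a gene, the unit by which reads are assigned to transcripts, 0.41% were shared with another gene for Myl9. The share was 22.9% for Myl12a and 26% for the first Myl12b identifier. It was 97.2% for the second Myl12b identifier, which lies on chromosome 17 of GRCm38 from 70974119 to 71002208 and overlaps the exons of both other genes. Reads of Myl12a and Myl12b may therefore have been split among 3 identifiers, and the sum of the 3 is given beside the single values. The 6 other members apart from Myl6 (11.4%) shared between 0.90% and 5.52% of their words with other genes.

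Myl9 rose in WT31_P5IV, by the largest fold of the 11 identifiers, and Mylk and Myh10 fell. Myh14 was the only other member that rose, while Myh9, Myl12a, both Myl12b identifiers, Rock1 and Rock2 fell by smaller amounts and Myl6 did not pass the test. In such bulk RNA, a change in the number of cells that express a gene and a change in its RNA per cell cannot be told apart. All 11 identifiers passed the filter on low counts and were tested with edgeR's quasi-likelihood test among 13620 genes. SE below is the standard error of a log2 fold change, and SD is the spread over libraries. Of the 11, 10 had an adjusted p under 0.05, where 68.5% of all tested genes did. Higher levels were called for 2 (34.6% of all tested genes) and lower levels for 8 (33.9% of all tested genes). An absolute log2 fold change of at least 1 as well was reached by 3 identifiers, Myl9, Mylk and Myh10, where 9.10% of all tested genes reached it. In CPM, a gene's counts brought to a common library total with TMM scaling, the groups were fully separate for 8 identifiers and for 54.1% of all tested genes. The median log2 fold change was −0.25 over the members and 0.01 over all tested genes. Since most genes were called, a call alone sets a member apart little, and the sizes below carry more.

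**Figure D1:**
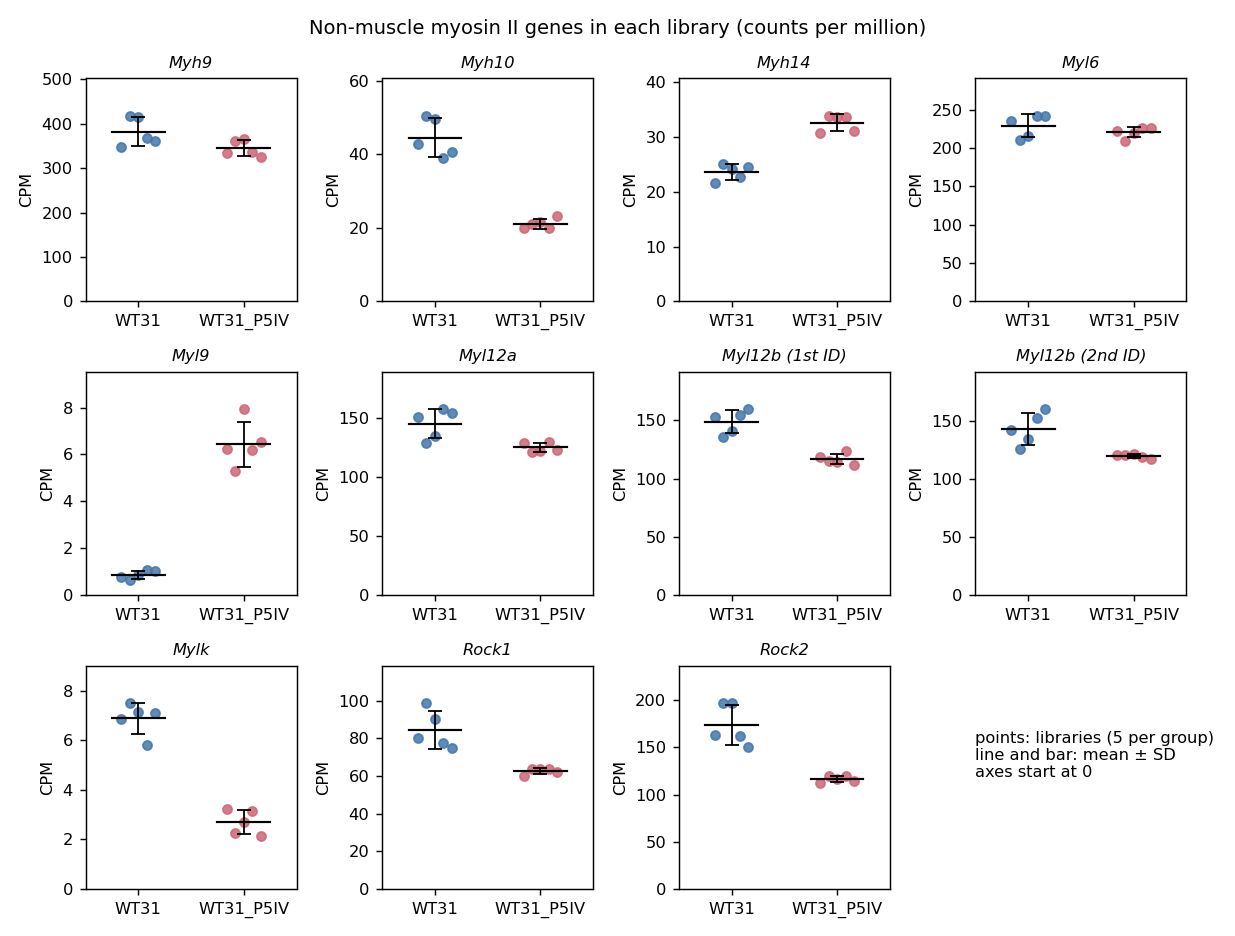
CPM of the 11 gene identifiers in each library of WT31 (blue) and WT31_P5IV (red). Points are libraries, 5 per group, lines and bars are the mean and SD, and all axes start at 0. Libraries of the groups are separate for Myh10, Myh14, Myl9, both Myl12b identifiers, Mylk, Rock1 and Rock2.

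Libraries 2 and 3 of WT31 stood apart from the other 3 on the second principal component of all genes (−17.9 and −16.6, against 3.07, 11.9 and 21), which held 6.2% of the variance, where the groups separated on the first (74.5%). They were also the highest WT31 libraries for Myh9, Myh10, Mylk, Rock1 and Rock2 and the lowest for Myl6, Myl12a and Myl12b. Values without both libraries are given beside each member below. WT31 libraries held 24825671 to 25750639 estimated counts each and WT31_P5IV libraries 24255389 to 25547694. The melanocyte markers (Mlana, Tyr, Tyrp1, Dct, Pmel, Mitf and Sox10) were above 3 counts in 7 of 7 cases, and their summed level was 17000 to 18400 CPM in WT31 and 22200 to 25700 CPM in WT31_P5IV. The markers did not move together, since mean CPM went from 5893 to 10230 for Dct and from 1860 to 4330 for Pmel, but from 3041 to 1564 for Tyrp1 and from 854 to 777 for Sox10.

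Myh9 encodes the heavy chain of non-muscle myosin IIA, which builds fast, dynamic filaments, and lies on chromosome 15 of GRCm38 (77760587 to 77842175, minus strand). Its level was 348, 419, 415, 367 and 362 CPM in WT31 libraries 1 to 5 and 335, 362, 366, 337 and 325 CPM in WT31_P5IV. The groups overlapped, and the 2 highest values were those of the WT31 libraries that stood apart. Means were 382 ± 32.4 and 345 ± 18.1 CPM (SD, n = 5 each). The log2 fold change was −0.15 (SE 0.06, edgeR adjusted p = 0.0295). This call rested on few libraries, since it was lost without WT31 library 3 (log2 fold change −0.13, adjusted p = 0.0532) and without WT31_P5IV library 1 (−0.14, adjusted p = 0.0588), library 4 (−0.14, adjusted p = 0.0536) or library 5 (−0.13, adjusted p = 0.0681). Without WT31 libraries 2 and 3 together, the log2 fold change was −0.07 (edgeR adjusted p = 0.136).

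Myh10 encodes the heavy chain of non-muscle myosin IIB, which holds tension for longer and is known for its place at the rear and around the nucleus of moving cells. It lies on chromosome 11 (68691559 to 68816632, plus strand). It was measured at 42.9, 50.6, 49.6, 39.1 and 40.7 CPM in WT31 and at 19.8, 21.1, 21.5, 19.9 and 23.3 CPM in WT31_P5IV. The lowest WT31 library was well above the highest WT31_P5IV library. Means were 44.6 ± 5.25 and 21.1 ± 1.42 CPM (SD, n = 5 each), a fitted level 2.11-fold lower in WT31_P5IV (log2 fold change −1.08, SE 0.08, edgeR adjusted p = 1.159e-08). Without WT31 libraries 2 and 3, the log2 fold change was −0.97, just under the size filter of 1 (edgeR adjusted p = 1.661e-10).

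Myh14 encodes the heavy chain of non-muscle myosin IIC, known mostly from epithelia and the inner ear, and lies on chromosome 7 (44605803 to 44670843, minus strand). It was at 21.6, 25, 24.2, 22.8 and 24.5 CPM in WT31 and at 30.7, 33.9, 33.7, 33.6 and 31.1 CPM in WT31_P5IV. Every WT31_P5IV library exceeded every WT31 library. The means of 23.6 ± 1.42 and 32.6 ± 1.55 CPM gave a log2 fold change of 0.46 (SD, n = 5 each, SE 0.05, edgeR adjusted p = 1.384e-06), and it was 0.49 without WT31 libraries 2 and 3.

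The question of which heavy chain a cell holds most of needs values per length, so shares were formed from TPM, the length-corrected abundance, within each library. Myh9 made up 80.2 ± 1.56% of heavy chain TPM in WT31 and 81.6 ± 0.976% in WT31_P5IV, and the groups overlapped (difference 1.37 percentage points, p = 0.143 by a two-sided exact permutation test over libraries, adjusted p = 0.143 over 7 shares). The share of Myh10 was 14.6, 12.5, 11.8, 13.6 and 14.1% in WT31 libraries 1 to 5 and 8.34, 7.10, 7.22, 8.40 and 8.93% in WT31_P5IV. The share of Myh14 was 6.95, 6.17, 6.06, 6.07 and 7.0% in WT31 and 9.72, 10.5, 10.4, 11.5 and 9.91% in WT31_P5IV. Neither of the last 2 shares overlapped between the groups, and Myh10 and Myh14 changed places behind Myh9.

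The Myh10 share averaged 13.3 ± 1.15% in WT31 and 8.0 ± 0.800% in WT31_P5IV (adjusted p = 0.0111, exact permutation test, n = 5 each). The Myh14 share averaged 6.45 ± 0.481% and 10.4 ± 0.698% (adjusted p = 0.0111, exact permutation test, n = 5 each). The smallest p that 5 against 5 libraries allow is 0.00794 before adjustment, and both comparisons reached it. The order of the heavy chains was Myh9, Myh10, Myh14 in each WT31 library and Myh9, Myh14, Myh10 in each WT31_P5IV library, with no overlap between neighbours of the order. Summed heavy chain TPM was 99.0 ± 9.49 in WT31 and 78.6 ± 3.00 in WT31_P5IV. On log2(TPM + 0.1), the median of all tested genes moved by −0.17 against the edgeR log2 fold changes. Myh9, the main part of the sum, was at 90.2 and 88.5 TPM in WT31 libraries 2 and 3. It was at 72.0, 74.7 and 72.3 TPM in WT31 libraries 1, 4 and 5. In shares of estimated counts, which favour long transcripts, Myh9 rose from 84.9% to 86.5% (adjusted p = 0.00926, exact permutation test, n = 5 each). Shares in TPM depend on the transcripts that reads were assigned to. The effective length inferred from counts and TPM was a median 7248 bases in WT31 and 7209 bases in WT31_P5IV for Myh9, but 4828 and 4690 bases for Myh10, whose longest annotated transcript has 7791 bases.

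**Figure D2:**
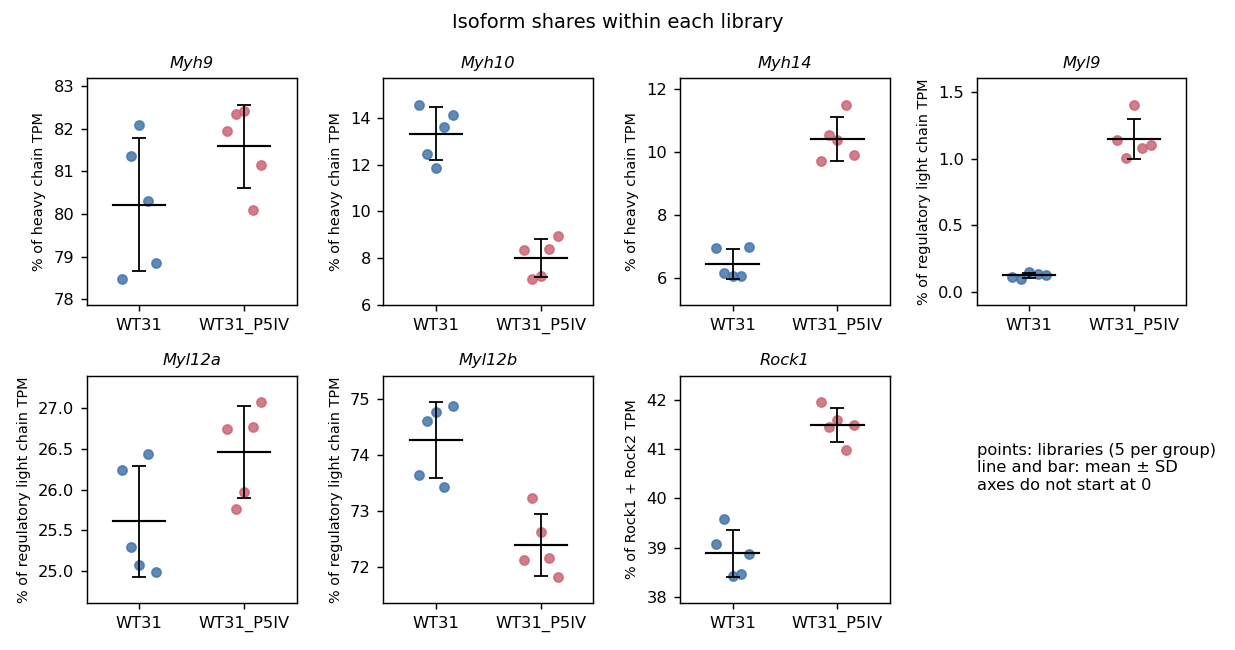
Shares of TPM within each library, in percent of the 3 heavy chains (Myh9, Myh10, Myh14), of the regulatory light chains (Myl9, Myl12a, Myl12b) and of Rock1 and Rock2 together (Rock1). Points are libraries, 5 per group, lines and bars are the mean and SD, and the axes do not start at 0. The Myh10 share was 11.8 to 14.6% in WT31 and 7.10 to 8.93% in WT31_P5IV, and the Myh14 share was 6.06 to 7.0% and 9.72 to 11.5%.

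Myl6 encodes the essential light chain, which stiffens the lever arm of the heavy chain and is not phosphorylated to switch the motor, and lies on chromosome 10 (128490860 to 128494145, minus strand). It was at 236, 210, 216, 242 and 242 CPM in WT31 and at 223, 209, 220, 226 and 226 CPM in WT31_P5IV. The groups overlapped, with WT31 libraries 2 and 3 the lowest of their group. The log2 fold change was −0.05 (SE 0.05, edgeR adjusted p = 0.309). It was called lower without WT31 libraries 2 and 3 (log2 fold change −0.14, edgeR adjusted p = 0.00351) and on the log2(TPM + 0.1) scale (−0.25, adjusted p = 2.201e-04 with limma), a scale on which the median of all tested genes moved by −0.17.

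Myl9 encodes a regulatory light chain that is abundant in smooth muscle and is also used by non-muscle cells, and lies on chromosome 2 (156775420 to 156781658, plus strand). It was represented by 20, 17, 22, 27 and 26 estimated counts in WT31 libraries 1 to 5 and by 148, 123, 197, 147 and 158 in WT31_P5IV. These counts correspond to 0.784, 0.643, 0.863, 1.06 and 1.03 CPM in WT31 and to 6.22, 5.28, 7.92, 6.19 and 6.53 CPM in WT31_P5IV. All WT31 values were low and all WT31_P5IV values were several times higher. The means were 0.876 ± 0.174 and 6.43 ± 0.958 CPM, and the fitted level was 7.32-fold higher in WT31_P5IV (SD, n = 5 each, log2 fold change 2.87, SE 0.15, edgeR adjusted p = 4.621e-10). Without WT31 libraries 2 and 3 the log2 fold change was 2.73.

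Myl9 is also expressed by smooth muscle cells, stellate cells and fibroblasts, and markers of these cells were therefore read in the same libraries. All 10 markers (Myh11, Acta2, Cnn1, Tagln, Des, Lmod1, Pdgfrb, Lrat, Dcn and Pdgfra) were above 3 counts in some library. Their summed level was 5.03 to 6.31 CPM in WT31 and 4.09 to 5.00 CPM in WT31_P5IV. Pdgfra, the largest part of it, averaged 1.54 and 1.5 CPM. Of the contractile markers, Acta2 was higher in every WT31_P5IV library, with 2 to 12 counts in WT31 and 15 to 21 in WT31_P5IV, while Cnn1 had 15 to 18 and 1 to 4, and Myh11, the smooth muscle heavy chain, had 0 to 6 and 0 to 4. Hepatocyte markers summed to 0.341 to 0.627 CPM in WT31 and 0.483 to 1.30 CPM in WT31_P5IV, with Serpina1a at 0 in all libraries. Endothelial markers summed to 0.158 to 0.492 and 0.121 to 0.421 CPM, with Lyve1 and Cdh5 at 0. Leukocyte and macrophage markers summed to 4.84 to 6.68 and 4.22 to 6.24 CPM, with Clec4f at 0. Within this last sum, Cd68 had 20 to 50 counts in WT31 and 80 to 117 in WT31_P5IV, whereas Lyz2 had 92 to 129 and 21 to 30. The part of other cells in the level of Myl9 was not tested.

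The start of Myl9 is shown because no other member changed by as large a fold. The 70 bases from −191 to −122 relative to the RefSeq start on the plus strand (GRCm38.p6, chr2:156775273-156775342) hold a CArG box, the motif bound by serum response factor, which is given in capitals.
Myl9: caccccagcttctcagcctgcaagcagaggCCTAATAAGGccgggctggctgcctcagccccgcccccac
CArG boxes were searched on both strands of windows from 250 bases before to 50 bases after RefSeq starts. Starts on the chromosome that carries Rock1 were left out of the search. Of the 32851 windows searched, 535 (1.63%) held at least 1. Of the members with a window, the Myl9 window and 1 of 2 Myl6 windows held one. The MCAT motif CATTCC, read on both strands, was found in the windows of Myh10, Mylk and Myl12a and in 14.7% of all windows searched. These matches describe the letters of the windows only.

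Myl12a and Myl12b encode the widely used regulatory light chains and are neighbours on the minus strand of chromosome 17 (70993656 to 71002878 and 70973133 to 70990890). Myl12a was at 151, 129, 135, 158 and 154 CPM in WT31 and at 129, 121, 123, 130 and 124 CPM in WT31_P5IV. Its groups just overlapped, at means of 146 ± 12.4 and 125 ± 3.85 CPM (SD, n = 5 each, log2 fold change −0.22, SE 0.05, edgeR adjusted p = 0.00219). The first Myl12b identifier was at 153, 136, 140, 154 and 159 CPM in WT31 and at 119, 115, 114, 124 and 112 CPM in WT31_P5IV. Its groups did not overlap (log2 fold change −0.35, SE 0.05, edgeR adjusted p = 1.196e-05). The second identifier was at 143 ± 13.8 and 120 ± 1.75 CPM (SD, n = 5 each, log2 fold change −0.25, SE 0.06, edgeR adjusted p = 9.186e-04). Summed over the 3 identifiers, which removes the question of how reads were split among them, the level was 437 ± 35.5 CPM in WT31 and 362 ± 8.11 CPM in WT31_P5IV. The sum fell by 0.27 on the log2 scale (SE 0.05, edgeR adjusted p = 2.062e-04). Without WT31 libraries 2 and 3, the log2 fold changes were −0.32 for Myl12a, −0.43 for the first and −0.35 for the second Myl12b identifier.

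In TPM, Myl9 accounted for 0.126 ± 0.0203% of regulatory light chain transcripts in WT31 and for 1.15 ± 0.153% in WT31_P5IV (adjusted p = 0.0111, exact permutation test, n = 5 each). Its highest WT31 library was at 0.150% and its lowest WT31_P5IV library at 1.00%. Without the second Myl12b identifier its share was 0.215% in WT31 and 1.96% in WT31_P5IV, and in estimated counts it was 0.199% and 1.75%. Even so, Myl9 remained the minor chain in every library. Myl12b, both identifiers added, held 74.3 ± 0.679% in WT31 and 72.4 ± 0.551% in WT31_P5IV (adjusted p = 0.0111, exact permutation test, n = 5 each). Myl12a held 25.6 ± 0.679% and 26.5 ± 0.562%, with overlapping groups (adjusted p = 0.0833, exact permutation test, n = 5 each). The division between Myl12a and Myl12b depends on the second identifier, and with that identifier left out Myl12a held 43.5% in WT31 and 45.2% in WT31_P5IV (adjusted p = 0.0463, exact permutation test, n = 5 each). Summed regulatory light chain TPM was 1169 ± 53.7 in WT31 and 861 ± 13.2 in WT31_P5IV. The median shift of TPM over all tested genes, given for the heavy chains (−0.17), applies to this sum too.

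Mylk encodes myosin light chain kinase, which calmodulin and calcium switch on, and lies on chromosome 16 (34745210 to 35002420, plus strand). It was at 6.86, 7.49, 7.14, 5.82 and 7.09 CPM in WT31 and at 3.24, 2.27, 2.69, 3.16 and 2.15 CPM in WT31_P5IV. The groups were separate, although the gene was low, with 148 to 198 estimated counts in WT31 and 51.9 to 77.0 in WT31_P5IV. The fitted level was 2.54-fold lower in WT31_P5IV (6.88 ± 0.636 against 2.70 ± 0.497 CPM, SD, n = 5 each, log2 fold change −1.35, SE 0.12, edgeR adjusted p = 1.129e-07). Without WT31 libraries 2 and 3 the log2 fold change was −1.30. Mylk gives rise to transcripts of very different length, and its inferred effective length was 2242 to 2771 bases in WT31 and 2388 to 3631 bases in WT31_P5IV, against a longest annotated transcript of 7824 bases. Antisense genes overlap its exons, but none of them exceeded 8 counts in any library.

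Rock1 and Rock2 encode kinases that phosphorylate the regulatory light chain and inhibit myosin phosphatase. Rock1, on chromosome 18 (10064401 to 10182045, minus strand), was at 80.3, 98.7, 90.4, 77.6 and 74.7 CPM in WT31 and at 60.2, 63.7, 63.9, 63.6 and 62.2 CPM in WT31_P5IV. Rock2, on chromosome 12 (16894895 to 16987823, plus strand), was at 163, 197, 197, 162 and 151 CPM in WT31 and at 112, 119, 117, 119 and 114 CPM in WT31_P5IV. For both kinases every WT31 library was above every WT31_P5IV library, and WT31 libraries 2 and 3 were the highest.

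Rock1 fell from 84.3 ± 9.95 to 62.7 ± 1.55 CPM (SD, n = 5 each, log2 fold change −0.43, SE 0.07, edgeR adjusted p = 3.806e-05). Rock2 fell from 174 ± 21.4 to 116 ± 3.39 CPM (SD, n = 5 each, log2 fold change −0.58, SE 0.07, edgeR adjusted p = 2.541e-06). Without WT31 libraries 2 and 3, the log2 fold changes were −0.32 for Rock1 and −0.46 for Rock2, and both kept an adjusted p under 0.05. Rock1 made up 38.9 ± 0.473% of the TPM of both kinases in WT31 and 41.5 ± 0.344% in WT31_P5IV, with no overlap (adjusted p = 0.0111, exact permutation test, n = 5 each). Thus the fall was larger for Rock2 than for Rock1, and Rock2 was the more abundant kinase in every library. Summed TPM of both was 57.7 ± 8.91 in WT31 and 36.0 ± 0.722 in WT31_P5IV, with the same median shift of TPM over all tested genes (−0.17).

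**Figure D3:**
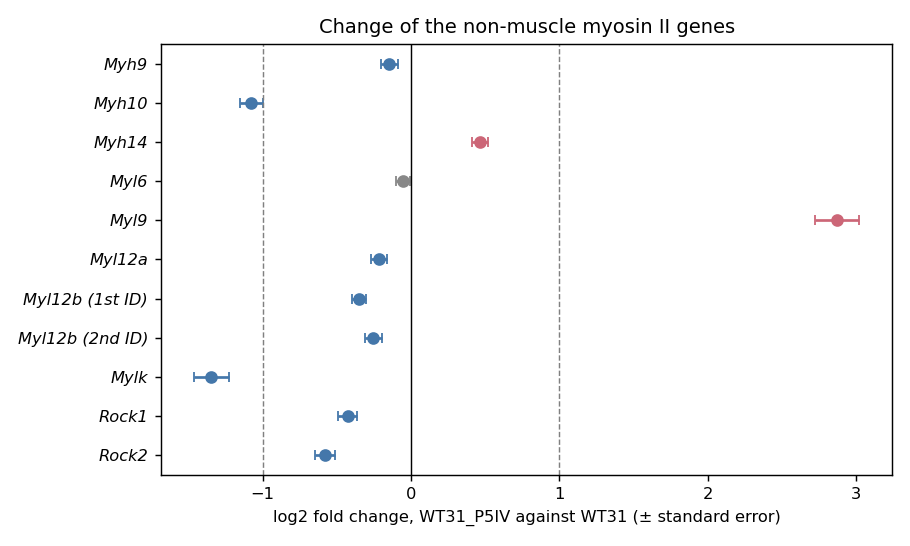
Log2 fold change of each member in WT31_P5IV against WT31 with its standard error, from edgeR's quasi-likelihood test. Red points rose, blue points fell, and the grey point (Myl6) did not pass an adjusted p of 0.05. Dashed lines mark a log2 fold change of 1 in either direction, which Myl9 (2.87), Mylk (−1.35) and Myh10 (−1.08) passed.

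To place the members among other genes of myosin II regulation, 11 lists with 125 genes were read in the same test. Of the 98 identifiers tested, 25 were higher (25.5%, against 34.6% of all tested genes) and 53 were lower (54.1%, against 33.9% of all tested genes) in WT31_P5IV, and the median log2 fold change was −0.19. On the log2(TPM + 0.1) scale, 15 were higher and 62 lower with limma, where 21.4% of all tested genes were higher and 43.7% lower. The size filter was passed by 4 of the 98, where 9.10% of all tested genes passed it. These were Cald1, Tagln2, Arhgef3 and Arhgef17, each of which was lower.

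Among actin filament and stress fibre proteins, 4 of 19 tested genes rose and 13 fell. Cald1, encoding caldesmon, which binds actin and myosin and restrains the motor, fell from 15.9 ± 0.601 to 1.19 ± 0.172 CPM (SD, n = 5 each, log2 fold change −3.73, SE 0.08, edgeR adjusted p = 9.058e-14). Tagln2, encoding the actin-bundling protein transgelin 2, fell from 62.0 ± 6.59 to 6.65 ± 0.634 CPM (SD, n = 5 each, log2 fold change −3.22, SE 0.08, edgeR adjusted p = 3.084e-13). These were much larger changes than those of the tropomyosins Tpm4 (−0.80) and Tpm1 (−0.68) or of the actins Actg1 (−0.52) and Actb (−0.27), all of which fell. Genes that rose in this list included Flna (0.56), which encodes filamin A and cross-links actin, and the alpha-actinins Actn4 (0.14) and Actn1 (0.11). The tropomyosins, actins, Flna and alpha-actinins are named here after their values were seen.

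Arhgef3 had 55 to 80 counts in WT31 and 2 to 5 counts in WT31_P5IV (2.57 ± 0.316 against 0.133 ± 0.0517 CPM). Arhgef17 had 21 to 34 counts in WT31 and 0 to 3 in WT31_P5IV, which is at or under the detection limit of 3 counts per library, so its level was at least 8.71-fold lower (edgeR adjusted p = 2.521e-07).

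The other enzymes of the regulatory light chain moved both ways. Of 6 tested kinases besides the members, 3 rose and 2 fell, with a median of 0.12. Cit, encoding citron kinase of the cleavage furrow, rose from 33.9 ± 2.15 to 51.9 ± 0.976 CPM (SD, n = 5 each, log2 fold change 0.61), whereas Dapk1, a death-associated kinase, fell from 24.4 ± 1.04 to 14.1 ± 0.479 CPM (SD, n = 5 each, log2 fold change −0.79). Of 6 tested genes of myosin phosphatase and its inhibitors, 2 rose and 3 fell. The catalytic subunit Ppp1cb fell (log2 fold change −0.49). The targeting subunits moved both ways, since Ppp1r12c (0.59) and Ppp1r12b (0.26, with overlapping groups) rose and Ppp1r12a fell (−0.44). Ppp1r12a and Ppp1r12b are named here after their values were seen.

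Of the LIM kinase, cofilin and ERM branch, which acts downstream of Rock on actin filaments and the membrane, 3 of 12 genes rose and 7 fell. Msn (moesin, −0.52) and Limk1 (−0.48) changed most. The other LIM kinase, Limk2, rose (0.23, with overlapping groups) and is named after its value was seen. Of 16 tested identifiers for assembly and scaffold partners of myosin II, 3 rose and 10 fell. The largest falls were those of Shroom3 (−0.68), which recruits Rock to the apical cortex, and of both Sept2 identifiers (−0.64 and −0.61). Sept2 encodes a septin that binds myosin II. Of the 3 myocardin-related and serum response factors, Mrtfb (−0.30) and Srf (−0.12) fell and Mrtfa had a log2 fold change of 0.02 without passing the test. Myo18a, the heavy chain of a class XVIII myosin that can join myosin II filaments, fell (−0.42), and Myl6b, an essential light chain, did not pass the test (0.07). Muscle myosin chains were low, since 16 of 18 genes did not pass the filter and none of these had more than 15 counts in any library. Of the 2 that were tested, Mylpf, a skeletal regulatory light chain, rose (0.57) and Myl4 did not pass the test (0.27). Once their values were seen, Srf, Mrtfa, Myl6b, Mylpf and Myl4 were named to complete their short lists.

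**Figure D4:**
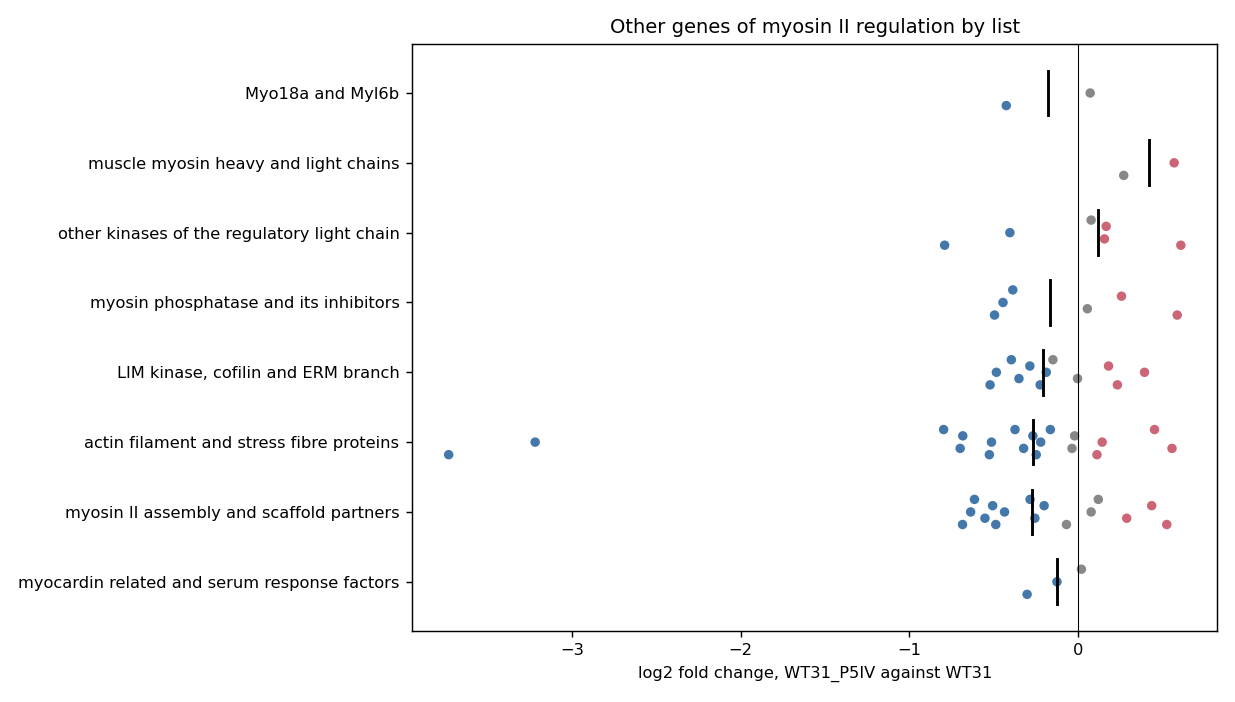
Log2 fold changes of the tested genes of 8 of the lists in WT31_P5IV against WT31, without the members. Points are genes, red for those that rose, blue for those that fell and grey for those that did not pass an adjusted p of 0.05 in edgeR's quasi-likelihood test, and black lines are medians. The points beyond −3 are Cald1 and Tagln2.

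Over the 10 libraries, the genes outside the myosin family whose log2 CPM followed that of Myh10 most closely were Nt5dc3 (Pearson's r = 0.997), Acbd3 (0.997) and Rragd (0.996). The points share the 2 groups, which differ for most genes, and 1371 tested genes had an r above 0.95, so that these 3 genes are a description only.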

How the data were processed

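Members and lists were chosen with earlier results of these data known. The authors trimmed reads with Trim Galore (0.6.4 in the submitters' processing notes), pseudoaligned them to GRCm38.p6 transcripts with kallisto, and deposited estimated counts and TPM per gene. The annotation release and the strand setting are not given in the sources used here. Symbols came from GENCODE M21, which holds 55144 of the 55385 identifiers. Estimated counts were rounded, filtered with filterByExpr, scaled by TMM and tested by edgeR 4.0.16 under R 4.3.3 (functions glmQLFit and glmQLFTest), with Benjamini-Hochberg adjustment over 13620 genes. The test was tried on simulated data. Shares of TPM were compared by two-sided exact permutation tests, adjusted over 7 shares. Limits of 3 counts cover counting error only. Named genes were the members and, per list, the 2 called genes with the largest change, at least 1 CPM in a group and groups that did not overlap, plus 3 genes most like Myh10, marker genes and those the text gives as named after their values were seen. Of these, Myl12b and Sept2 were each matched to 2 identifiers. Alternatives were DESeq2 1.42.0, limma 3.58.1 (voom and log2 TPM), other scalings and filters, the replicate block and each library left out. Promoter windows came from RefSeq (GRCm38.p6). Those of chromosome 18 were left out, so Rock1, which lies there, had no window. Some lists and genes are not reported here.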

Additional observations from a re-analysis of the deposited data

How the results depend on the processing

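Over 20 other settings, 210 of 220 log2 fold changes of the members kept their direction and their side of an adjusted p of 0.05, 6 lost the call (Myh9), 4 gained it (Myl6) and none reversed. Myh9 also lost it with upper-quartile scaling (log2 fold change −0.12, adjusted p = 0.0537), and Myl6 gained it with limma voom without scaling or filter (−0.12, adjusted p = 0.0333) and on log2(TPM + 1) (−0.25, adjusted p = 2.224e-04). The cause was not tested. Leaving out WT31 libraries 2 and 3 together was chosen after seeing the data, as were the sum of the Myl12 identifiers and the share without the second one. Requiring an absolute log2 fold change of at least 1 left 3 of 10 called identifiers, and 2 on log2(TPM + 1) or without WT31 libraries 2 and 3. Genes of the lists called higher were 25, but 14 with limma voom without scaling or filter, 15 on log2(TPM + 0.1) and 15 on log2(TPM + 1), scales on which the median of all genes moved by −0.07, −0.17 and −0.16. In shares of estimated counts Myh9 rose by 1.66 points (adjusted p = 0.00926) and Myl12a by 0.802 points (adjusted p = 0.0476), and without the second Myl12b identifier Myl12a rose by 1.64 points (adjusted p = 0.0463, exact permutation tests). Replicate numbers, taken from the sample titles because those in the file labels differ for WT31, did not pair the libraries (correlations of same-numbered libraries −0.096 to 0.178), and with the replicate block 10 identifiers were called and Myl9 had a log2 fold change of 2.87. Depth limits Arhgef17 and the muscle myosins.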
